A study of Mus musculus with 8 samples.

Results

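Transcripts of 10 enzymes and subunits of the methionine cycle and of chromatin methylation were followed in CD4+ T cells taken by sorting from the digested knees of arthritic mice. The arthritis was antigen-induced, a model in which immunised animals develop inflammation of a joint challenged with the same antigen. The members were Mat2a, Mat2b, Ahcy, Ezh2, Eed, Suz12, Dnmt1, Dnmt3a, Tet2 and Tet3, chosen by symbol for their roles, and they make up 10 of the 24421 gene symbols counted. All 10 were among the 8489 genes with enough counts to be tested. Slc7a5 knockout cells gave 4 libraries and wild-type cells gave 4 libraries, all from male mice aged 16 weeks with the same arthritis, per the labels. The labels give neither the allele nor the deleted part of Slc7a5, nor the cells in which it was deleted, nor the number of cells sorted per library. They do not tie libraries to separate animals, so the p-values rest on the spread among these libraries and that spread may be partly technical.

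Slc7a5 encodes LAT1, which carries methionine and other large neutral amino acids into activated T cells. The methionine adenosyltransferase MAT2A, with its regulatory subunit MAT2B, turns methionine into S-adenosylmethionine, the methyl donor of nearly all methyltransferases. Each methyl transfer leaves S-adenosylhomocysteine, which inhibits methyltransferases until AHCY splits it. EZH2, EED and SUZ12 form the core of PRC2, the complex that methylates histone H3 at silenced genes and helps to fix T helper lineages. DNMT1 copies DNA methylation at replication and DNMT3A sets it on new sites, while TET2 and TET3 oxidise methylated cytosine and so open the way to its loss.

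The libraries held 18837650 to 25853856 counts in knockout and 21873678 to 36436923 counts in wild type. Genes with at least 1 count numbered 5221 to 9358 in knockout and 7957 to 10139 in wild type, and the lowest number was that of knockout replicate 4. Of the 4832 tested genes with a mean of at least 30 CPM, which are counts scaled to a common library size, 34.5% were under 1 CPM in knockout replicate 4, against 1.59% to 11.1% in the other knockout libraries and 0.455% to 5.32% in the wild-type libraries. In the same library 4 of the 10 members were under 1 CPM and 3 of these had no count. Slc7a5 had 0 counts in every knockout library, against 385, 194, 410 and 0 counts in wild-type replicates 1 to 4. The T cell marker Cd3e lay at 330 to 382 CPM in knockout and at 407 to 554 CPM in wild type. Cd4 had 34 counts (1.78 CPM) in knockout replicate 4, against 344 to 427 CPM in the other knockout libraries and 373 to 570 CPM in wild type. Of 11 T cell markers tested, 10 had lower and 1 higher estimates in knockout, with 0 called. At an unadjusted p under 0.05 by edgeR, 3 were lower and 1 higher, beside 1.97% and 1.87% of all genes tested. Of these markers, 4 lay wholly below wild type, beside 4.62% of all genes tested. They summed to 9135 to 11059 CPM in knockout and 10386 to 14366 CPM in wild type. Their part in the values of the members was not tested. The 15 monocyte, macrophage and dendritic cell markers summed to 1953 to 10892 CPM in knockout and 1243 to 3023 CPM in wild type, with Adgre1 and Fcgr1 at 0 throughout. Of these, 8 were tested, with 6 higher and 2 lower estimates in knockout (median log2 fold change 1.81) and 0 called. At an unadjusted p under 0.05 by edgeR, 4 were higher and 0 lower, beside 1.87% and 1.97% of all genes tested. The difference in the sums lay mostly in Cd74 and the MHC class II transcripts, and its part in the values of the members was not tested.

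In mouse, Mat2a lies on chromosome 6 from 72432796 to 72439556 on the minus strand (GRCm38, as all positions here). Its 3′ untranslated region is known for sensing the cell's supply of methyl donor. In human cells the methyltransferase METTL16 binds hairpins there, and the splicing and stability of the transcript follow the level of S-adenosylmethionine. The sites are printed here because this is the member whose RNA is known to respond to methionine supply. The motif was searched for as TACAGAGAA or TACAGAAAA, on the transcribed strand only since the target is RNA, in the 1494 bases that follow the stop codon in the GENCODE M21 transcript with the longest coding sequence. There were 6 matches, at positions 40, 824, 1003, 1118, 1229 and 1337 counted from the first base after the stop codon, and capitals mark the motif.
site 1: tggcgtaggtTACAGAGAAgccttcaagc
site 2: ccttgtgataTACAGAGAAgtcacagggc
site 3: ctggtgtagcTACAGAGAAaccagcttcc
site 4: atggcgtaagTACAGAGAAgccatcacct
site 5: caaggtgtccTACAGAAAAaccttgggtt
site 6: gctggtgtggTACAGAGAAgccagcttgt
Together the printed windows lie between chr6:72432938 and 72434263, and all 6 belong to the last exon of Mat2a. Of 6357 genes whose 3′ untranslated region is at least as long, 263 (4.14%) held 1 or more matches in the first 1494 bases. No other gene of these held as many as Mat2a. The motif is that of the hairpins known in this very region, so the rank of Mat2a is a description and not a test. A match is a string of letters and not a measured binding site, and the counts per gene do not separate spliced Mat2a RNA from RNA that keeps an intron.

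**Figure D1:**
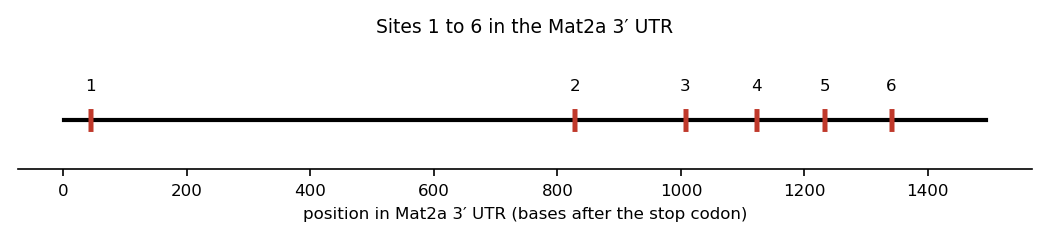
The horizontal axis is the position in the Mat2a 3′ untranslated region, in bases after the stop codon; the black line is its 1494 bases and the red bars are the 6 motif matches. Site 1 lies at position 40, near the stop codon, and sites 2 to 6 lie between positions 824 and 1337.

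No member passed the test. By edgeR's quasi-likelihood test, adjusted over all genes tested (Benjamini-Hochberg), 0 of the 10 members were called at an adjusted p under 0.05 and each had an adjusted p of 0.9999; over all 8489 genes tested the share called was 0%. At an unadjusted p under 0.05 there were 0 members, where the share over all genes tested was 3.84% (1.87% higher and 1.97% lower in knockout). DESeq2 and limma voom called 0 members as well, with 387 (3.63% of those with an adjusted p) and 4 (0.0471%) genes called in all. Of the members 7 had higher and 3 lower estimates in knockout, where 45.0% of all genes tested had higher estimates. The median log2 fold change of the members was 0.41, beside −0.12 over all genes tested. A change in the amount of RNA per cell, a change in which CD4+ T cells were sorted and a share of other cells cannot be told apart in bulk RNA.

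By mean level scaled to transcript length, Mat2b was the most abundant member and Tet3 the least abundant in both genotypes. In CPM per kb of the longest annotated transcript, Mat2b was at 134 ± 42.4 in knockout and 106 ± 6.38 in wild type (SD, n = 4 each). Eed followed at 91.2 ± 38.0 in knockout and 76.4 ± 44.98 in wild type, and Ezh2 at 60.9 ± 55.2 in knockout and 43.8 ± 17.8 in wild type. Suz12, the third core subunit of PRC2, was at 16.0 ± 14.9 per kb in knockout and 8.33 ± 4.46 per kb in wild type. These means were below those of its partners, but in knockout replicate 4 Suz12 was at 161 CPM and Ezh2 at 0 CPM. The order of the next members differed by genotype. In knockout it ran Mat2a, Suz12, Dnmt1, Tet2, Ahcy, Dnmt3a and Tet3. In wild type it ran Ahcy, Dnmt1, Mat2a, Suz12, Dnmt3a, Tet2 and Tet3. Ahcy was placed by its own counts, without those of its near-identical copy Gm4737. It averaged 15.5 CPM alone and 24.04 CPM with the copy in knockout, so its place there depends on how shared reads were assigned. Neighbours in these orders were not separated, since the ranges over libraries overlapped in 9 of 9 neighbouring pairs in knockout and in 9 of 9 in wild type.

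**Figure D2:**
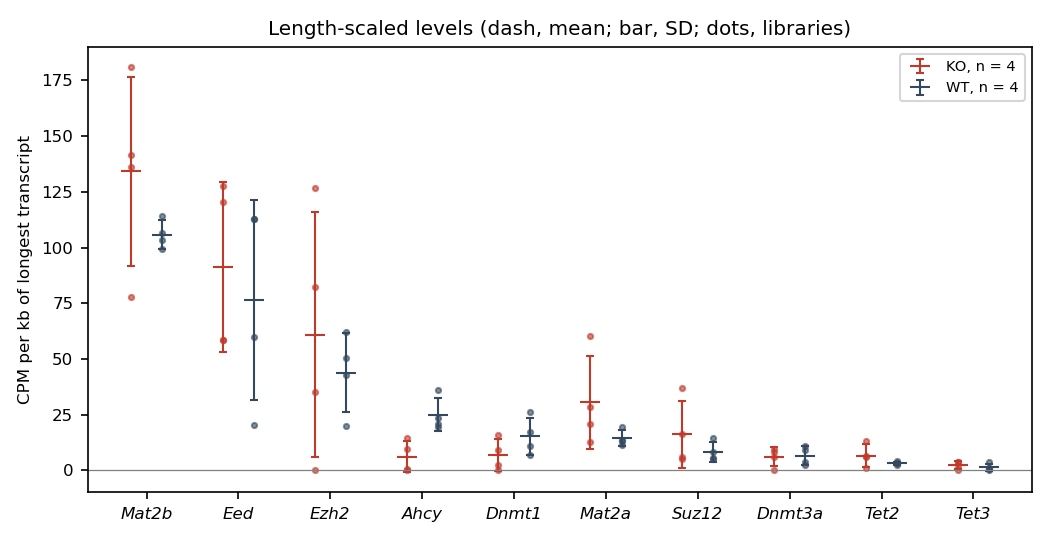
Levels in CPM per kb of the longest transcript (vertical axis) for the 10 members in knockout (red) and wild type (blue); dots are libraries, dashes are means and bars are SD, with n = 4 each. The means of Mat2b, Eed and Ezh2 lie above the other means in both genotypes, while the libraries of Ezh2 overlap those of the next member. The knockout bars of Ezh2 and Mat2b are wider than the wild-type bars.

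The methionine cycle enzymes went different ways by their estimates. Mat2a, the catalytic subunit that makes S-adenosylmethionine, was at 204, 96.7, 70.7 and 42.2 CPM in knockout replicates 1 to 4, against 65.6, 38.5, 46.2 and 44.5 CPM in wild-type replicates 1 to 4. Knockout replicates 1 to 3 lay above every wild-type library, while knockout replicate 4 lay within the wild-type range. Its log2 fold change was 1.09 (SE 0.79, 95% interval −0.63 to 2.80, edgeR adjusted p = 0.9999). Without knockout replicate 4 it was 1.33 (SE 0.49, unadjusted p = 0.0221, edgeR adjusted p = 0.5317), in a comparison where 8.01% of all genes tested had an unadjusted p under 0.05 and 0% were called. Without knockout replicate 1, its highest library, the log2 fold change was 0.52 (unadjusted p = 0.625 by edgeR).

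Mat2b (chromosome 11, 40679314 to 40695203, minus strand), the regulatory subunit that binds MAT2A, had the steadiest values of the group. It lay at 348, 445, 335 and 192 CPM in knockout, against 244, 262, 281 and 254 CPM in wild type. Wild-type libraries kept within a narrow band, knockout replicates 1 to 3 lay above it and knockout replicate 4 below it. The log2 fold change was 0.34 (SE 0.30, 95% interval −0.31 to 0.998, edgeR adjusted p = 0.9999), the narrowest interval among the members. Its fitted variation between replicates was at the percentile 4.77 of all genes tested. Without knockout replicate 4 the log2 fold change was 0.52 (SE 0.22, unadjusted p = 0.0402, edgeR adjusted p = 0.5751), and without knockout replicate 2 it was 0.14 (unadjusted p = 0.66 by edgeR).

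Ahcy (chromosome 2, 155059310 to 155074497, minus strand), which splits S-adenosylhomocysteine, was the member whose groups did not overlap. It lay at 36.3, 1.5, 24.1 and 0 CPM in knockout, against 52.8, 49.7, 59.7 and 91.1 CPM in wild type. All 4 knockout libraries were lower than any wild-type library, and knockout replicates 2 and 4 held 27 and 0 counts. Over all genes tested, 4.62% had knockout values wholly below wild type and 1.52% wholly above it, 6.14% in either direction, beside 1 of the 10 members. The log2 fold change was −2.03 (SE 1.74, 95% interval −5.82 to 1.76, edgeR adjusted p = 0.9999). DESeq2 gave −2.03 (adjusted p = 0.9998). With limma voom it was −4.54 (unadjusted p = 0.0333, not called), and with the replicate block −3.61 (unadjusted p = 0.249 by edgeR). Both of these settings shifted all genes tested, to a median log2 fold change of −1.28 with limma voom and −0.68 with the replicate block. By limma voom 1026 of 8489 genes had an unadjusted p under 0.05.

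Reads of Ahcy can be shared with near-identical copies. Gm4737, annotated as protein coding, matches the Ahcy transcript at 99.7% identity over 2083 bases. It had 479, 25, 318 and 0 counts in knockout replicates 1 to 4, against 721, 707, 850 and 1041 counts in wild type, and thus ran low in the same libraries as Ahcy. With both genes summed, an alternative added after the values were seen, the level was 24.04 ± 27.3 CPM in knockout and 92.7 ± 30.1 CPM in wild type (n = 4 each). The log2 fold change of the sum was −1.95 (SE 1.57, edgeR adjusted p = 1), close to that of Ahcy alone. A further copy of Ahcy, the processed pseudogene Gm9826, matched over 1299 bases at 99.2% identity and was not among the counted symbols. Any reads it took are therefore not in the sum. Among the other members, Mat2a shared a stretch of 1065 bases at 95.2% identity with a processed pseudogene, Gm9523, which was not analysed here. It also shared 211 bases with Particl, a gene that overlaps it on the other strand and held 346 counts over all libraries, and 227 bases at 95.2% with 6030443J06Rik, which held 0 counts. Eed shared up to 261 bases with E230029C05Rik, which overlaps it on the other strand and held 0 counts.

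**Figure D3:**
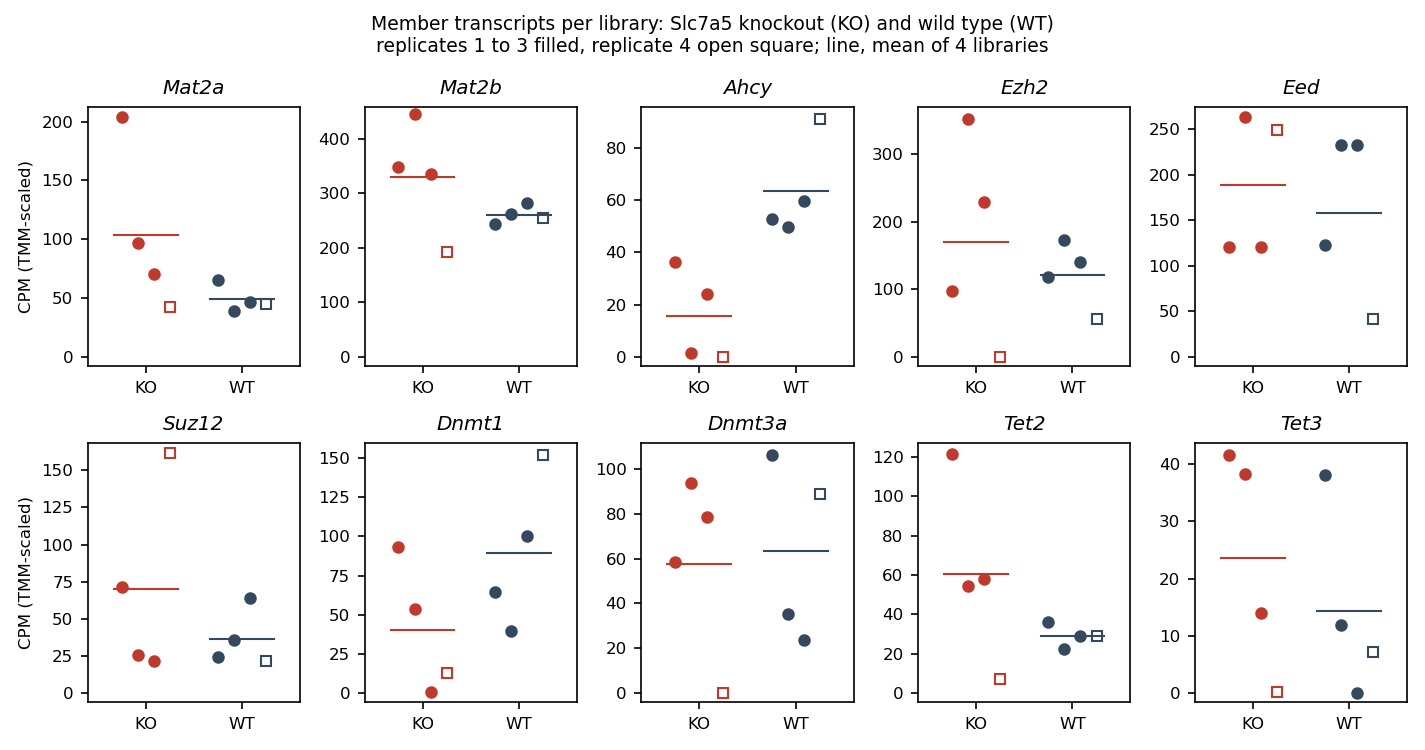
CPM (vertical axis, 1 scale per panel) of each member in knockout (red) and wild-type (blue) libraries; lines are means of 4 libraries, filled circles are replicates 1 to 3 and open squares are replicate 4. Ahcy shows 4 knockout libraries below all 4 wild-type libraries, and for Mat2a, Mat2b and Tet2 the open knockout square is the lowest knockout library; for Mat2a and Tet2 the highest is knockout replicate 1, at 204 and 121 CPM.

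The 3 PRC2 core subunits did not share a pattern over the libraries. Ezh2 (chromosome 6, 47530274 to 47595270, minus strand), the catalytic subunit, was at 97.5, 353, 229 and 0 CPM in knockout, against 119, 173, 141 and 55.4 CPM in wild type. Knockout libraries lay on both sides of the wild-type range, with replicates 2 and 3 above it and replicate 4 without a count. The log2 fold change was 0.48 (SE 1.38, 95% interval −2.59 to 3.54, edgeR adjusted p = 0.9999). It was 0.88 without knockout replicate 4, 0.30 without knockout replicate 3, 0.24 without wild-type replicate 4 and −0.19 when knockout replicate 2 was omitted, so the sign rests on single libraries.

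Eed (chromosome 7, 89954654 to 89980976, minus strand), which binds the methyl mark that PRC2 has made, was at 121, 264, 121 and 249 CPM in knockout, against 123, 233, 233 and 42.0 CPM in wild type. The groups overlapped, and the lowest value was that of wild-type replicate 4. Its log2 fold change was 0.26 (SE 0.54, 95% interval −0.92 to 1.44, edgeR adjusted p = 0.9999), and −0.05 without wild-type replicate 4. With other libraries left out it ran between 0.03, without knockout replicate 2, and 0.51, without wild-type replicate 3. Suz12 (chromosome 11, 79993106 to 80034123, plus strand), which holds the complex together, was at 71.7, 25.7, 21.7 and 161 CPM in knockout, against 24.1, 35.8, 64.1 and 21.6 CPM in wild type. The highest value came from knockout replicate 4, the library that had no Ezh2 count. Its log2 fold change of 0.95 (SE 1.11, edgeR adjusted p = 0.9999) was 0.11 without that library.

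Dnmt1 had a lower mean in knockout, and the means of Dnmt3a differed little between the genotypes. Dnmt1 (chromosome 9, 20907206 to 20959888, minus strand), the maintenance enzyme, was at 93.0, 53.5, 0.438 and 12.7 CPM in knockout, against 64.8, 39.4, 100 and 152 CPM in wild type. Knockout replicates 1 and 2 lay within the wild-type range and replicates 3 and 4 below it, and replicate 3 held only 11 counts. The log2 fold change was −1.16 (SE 1.25, 95% interval −3.90 to 1.58, edgeR adjusted p = 0.9999). Its size rests on single libraries, since it was −1.996 without knockout replicate 1, −0.74 without knockout replicate 3, −0.77 without wild-type replicate 4 and −0.88 when knockout replicate 4 was omitted. Dnmt3a (chromosome 12, 3801559 to 3914443, plus strand), the de novo enzyme, was at 58.8, 93.9, 78.8 and 0 CPM in knockout, against 106, 35.4, 23.7 and 88.8 CPM in wild type. Apart from the knockout library without a count, the groups lay in the same range. Its log2 fold change of −0.14 (SE 1.49, edgeR adjusted p = 0.9999) was 0.26 without knockout replicate 4, 0.23 without wild-type replicate 1 and 0.07 without wild-type replicate 4.

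Dnmt1 and Ezh2 are transcribed most in dividing cells. The 20 genes of S and M phase summed to 2600 to 3051 CPM in knockout and 2197 to 4659 CPM in wild type. Of these 20 genes, 17 had lower and 3 higher estimates in knockout (median log2 fold change −0.47), and 0 were called in either direction. Over all genes tested, 45.0% had higher estimates and the median was −0.12. Their part in the values of Dnmt1 and Ezh2 was not tested.

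Both TET genes had higher estimates in knockout. Tet2 (chromosome 3, 133463677 to 133545136, minus strand), often mutated in human T cell lymphomas, was at 121, 54.5, 58.1 and 7.10 CPM in knockout, against 36.0, 22.1, 29.0 and 28.9 CPM in wild type. Knockout replicates 1 to 3 lay above every wild-type library and knockout replicate 4 below every one. The log2 fold change was 1.06 (SE 1.2, 95% interval −1.57 to 3.68, edgeR adjusted p = 0.9999), and 1.41 (SE 0.64, unadjusted p = 0.053, edgeR adjusted p = 0.6481) without knockout replicate 4. Without knockout replicate 1 it was 0.46 (unadjusted p = 0.759 by edgeR). Tet3 (chromosome 6, 83362373 to 83457208, minus strand) was the member with the lowest means per kb. It was at 41.6, 38.3, 13.98 and 0.104 CPM in knockout, against 38.1, 11.96, 0.0308 and 7.196 CPM in wild type. It had 2 counts in knockout replicate 4 and 1 count in wild-type replicate 3, and the groups overlapped. Its interval, from −3.72 to 5.15 around a log2 fold change of 0.71 (edgeR adjusted p = 0.9999), was the widest of the 10. With each library left out in turn the log2 fold change of Tet3 ran between 0.29, without knockout replicate 1, and 1.88, without wild-type replicate 1; it was 0.30 without wild-type replicate 3, 0.35 without knockout replicate 2 and 1.11 without knockout replicate 4.

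The number of separated members depended on knockout replicate 4. With all 8 libraries it was Ahcy alone, 1 of 10 members. Without that library it was 4 of 10, with Mat2a, Mat2b and Tet2 above all wild-type libraries and Ahcy below them, where 10.4% of all genes tested were separated (4.09% higher and 6.28% lower in knockout). None of the 4 was called in that comparison by edgeR. The library was singled out after its values were seen, so this count is a description.

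**Figure D4:**
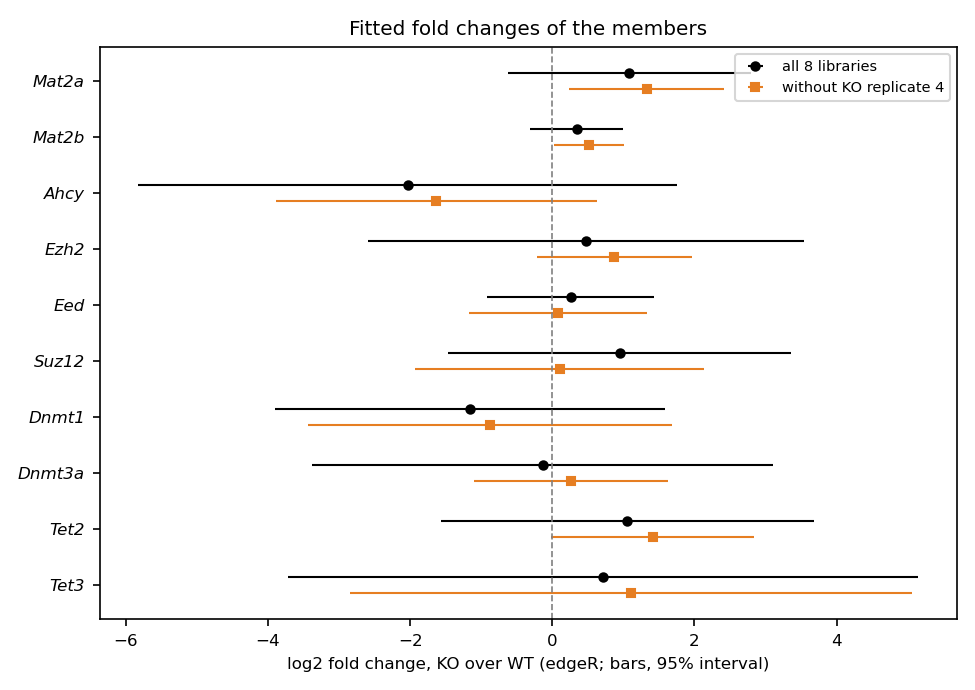
Log2 fold change, knockout over wild type (horizontal axis), of each member with all 8 libraries (black circles) and without knockout replicate 4 (orange squares); bars are 95% intervals of the edgeR fit. With all libraries every bar crosses 0; without knockout replicate 4 the bars of Mat2a and Mat2b lie above 0, with adjusted p of 0.5317 and 0.5751.

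The wider pathway gave no call by edgeR either. Over the 8 further lists, 113 genes were tested, of which 0 passed and 2 had an unadjusted p under 0.05, 1 higher (Ahcyl2) and 1 lower (Kmt2e) in knockout, beside 3.84% of all genes tested. DESeq2 called 1 gene of these lists, beside 3.63% of all genes with an adjusted p. Of the further methionine cycle, salvage and S-adenosylmethionine sensing genes, 13 of 20 were tested, with 5 higher and 8 lower estimates (median log2 fold change −0.16) and 0 called in either direction. Mat1a, Bhmt, Bhmt2 and Cbs, genes of the liver pathway, had no count in any library. The 18 genes of this list found among the symbols summed to 420 to 690 CPM in knockout and 317 to 358 CPM in wild type. Without Ahcyl2 the 17 other genes summed to 272 to 333 CPM in knockout and 222 to 330.3 CPM in wild type, so the groups overlapped. Ahcyl2, an AHCY-like protein, had the smallest unadjusted p of the list. It was at 154, 268, 87.3 and 396 CPM in knockout, against 33.3, 15.6, 92.3 and 103 CPM in wild type. Knockout replicates 1, 2 and 4 lay above all wild-type libraries (log2 fold change 1.89, SE 0.67, unadjusted p = 0.0161, edgeR adjusted p = 0.8046). Adi1, an enzyme of methionine salvage, averaged 1.23 ± 2.42 CPM in knockout and 13.3 ± 11.2 CPM in wild type (n = 4 each, log2 fold change −3.43, SE 2.83); 1 of the 4 knockout libraries was above 0.0522 CPM.

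Partners of PRC2 were tested for 6 of 9 genes, with 2 higher and 4 lower estimates and 0 called. Jarid2, which brings the complex to chromatin, was at 212, 158, 88.4 and 101 CPM in knockout, against 17.7, 27.1, 45.6 and 147 CPM in wild type. All knockout libraries lay above wild-type replicates 1 to 3, and wild-type replicate 4 lay among them (log2 fold change 1.23, SE 0.75, edgeR adjusted p = 0.9999). Leaving out wild-type replicate 4 gave 2.22. Rbbp7, a histone-binding subunit, averaged 456 ± 42.1 CPM in knockout and 354 ± 108 CPM in wild type. Of the DNA methylation list 10 of 15 were tested, with 4 higher and 6 lower estimates and 0 called. Its members of smallest p were Dnmt3b, at 54.1 ± 70.4 CPM in knockout and 8.01 ± 9.28 CPM in wild type, and Idh1, at 19.8 ± 25.0 CPM in knockout and 3.81 ± 7.19 CPM in wild type. Both had libraries at 0 in each genotype. Knockout replicate 4 held Dnmt3b at 158 CPM, where knockout replicates 1 to 3 had 30.9, 27.8 and 0 CPM, and its log2 fold change of 2.75 was 1.27 without replicate 4. Idh1 had a log2 fold change of 2.38, which was 1.23 without knockout replicate 2 and 6.48 without wild-type replicate 3.

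Histone lysine methyltransferases were tested for 25 of 31 symbols, with 11 higher and 14 lower estimates (median log2 fold change −0.55) and 0 called. Kmt2e, of the MLL family, was at 301, 187, 194 and 71.7 CPM in knockout, against 414, 293, 419 and 358 CPM in wild type. Knockout replicates 2 to 4 lay below every wild-type library (log2 fold change −0.98, SE 0.39, unadjusted p = 0.0295, edgeR adjusted p = 0.9999). Ash1l, which methylates histone H3 at active genes, was at 137, 22.9, 161 and 145 CPM in knockout, against 31.5, 15.1, 54.9 and 24.9 CPM in wild type. Here knockout replicates 1, 3 and 4 lay above the wild-type range and replicate 2 within it (log2 fold change 1.88, SE 0.89, edgeR adjusted p = 0.9999). Setd7, a further enzyme of this list, was separated with lower knockout values, at 7.31 ± 3.33 CPM in knockout and 19.0 ± 9.05 CPM in wild type (edgeR adjusted p = 0.9999). It was the only separated gene of the 25 tested, beside 6.14% of all genes tested separated in either direction (4.62% lower in knockout). Setd7 is named after its values were seen.

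Histone lysine demethylases were tested for 19 of 19 genes, with 10 higher and 9 lower estimates (median log2 fold change 0.15) and 0 called. Kdm6a, which removes the mark that PRC2 makes, averaged 87.1 ± 81.6 CPM in knockout and 29.1 ± 14.4 CPM in wild type. Knockout replicate 4 was at 207 CPM and the other knockout libraries were at 53.3, 62.5 and 25.3 CPM. For Kdm6a the log2 fold change of 1.58 was 0.67 without knockout replicate 4. Kdm5a, which acts on a mark of active promoters, averaged 231 ± 32.6 CPM in knockout and 162 ± 58.4 CPM in wild type. Protein arginine methyltransferases were tested for 6 of 9 genes, with 2 higher and 4 lower estimates and 0 called by edgeR. Wdr77, the partner of PRMT5, averaged 23.7 ± 17.7 CPM in knockout and 45.8 ± 5.99 CPM in wild type, and Prmt7 averaged 38.4 ± 38.2 CPM in knockout and 69.9 ± 26.4 CPM in wild type. Prmt2, which the filter on low counts removed, was called by DESeq2 (adjusted p = 0.00288), with 0 counts in all 4 knockout libraries, against 966, 0, 171 and 609 counts in wild-type replicates 1 to 4.

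RNA methyltransferases and erasers were tested for 14 of 15 genes, with 8 higher and 6 lower estimates and 0 called. Wtap, a subunit of the RNA adenosine methyltransferase complex, was at 235, 694, 244 and 310 CPM in knockout, against 296, 209, 163 and 94.9 CPM in wild type. Knockout replicates 2 and 4 lay above the wild-type range (log2 fold change 0.96, SE 0.44, unadjusted p = 0.0521, edgeR adjusted p = 0.9999; 0.44 without knockout replicate 2). Mettl1, a tRNA methyltransferase, averaged 30.8 ± 37.1 CPM in knockout and 2.84 ± 4.41 CPM in wild type (edgeR adjusted p = 0.9999). Its log2 fold change of 3.43 was 2.19 without knockout replicate 4 and 5.43 without wild-type replicate 2. Rnmt, which methylates the mRNA cap, was separated with lower knockout values, at 26.2, 39.6, 12.5 and 0 CPM in knockout, against 53.8, 64.5, 41.3 and 49.9 CPM in wild type. Its log2 fold change was −1.42 (SE 1.66, edgeR adjusted p = 0.9999), and it too is named after its values were seen. Rnmt was the only separated gene of the 14 tested, beside 6.14% of all genes tested separated in either direction (4.62% lower in knockout).

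Among the S and M phase genes, Stmn1, a regulator of microtubules, averaged 125 ± 25.9 CPM in knockout and 199.7 ± 72.6 CPM in wild type. Rrm1, the large subunit of ribonucleotide reductase, averaged 157 ± 60.2 CPM in knockout and 242 ± 137 CPM in wild type. Neither passed (edgeR adjusted p = 0.9999 for each). Their log2 fold changes of −0.68 (Stmn1) and −0.62 (Rrm1) were −0.15 and −0.19 with an offset for GC content. That offset moved the median of all genes tested from −0.12 to 0.15.

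Genes whose log2 CPM ran most like that of the steadily detected members over the 8 libraries were sought among 2917 genes with at least 10 counts in each library. For Mat2b they were Nfx1, Fam105a and Fnbp4, with Pearson r of 0.96, 0.96 and 0.94. For Eed they were Wdr33, a factor of mRNA cleavage and polyadenylation, Gmps, the GMP synthase, and Dcaf11, with r of 0.96, 0.94 and 0.93. For Mat2a they were Pim1, a kinase induced by cytokines, Zfp53 and Dnaja1, a chaperone partner, with r of 0.93, 0.90 and 0.89. The points are the same 8 libraries in every case and share their depth, and r is the highest among many genes, so these values describe likeness only.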

How the data were processed

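The authors deposited raw counts of reads for each gene symbol and library, with no normalization in the file. Per the submitters' processing notes, the tools were HISAT2 2.1.0, featureCounts and edgeR 3.28.1, with mm10 as the genome build. Libraries were made with a kit for low RNA input, per the labels' protocols. The annotation, the strand setting and how duplicates were handled are not stated in the labels. Reads of overlapping or antisense genes therefore cannot be told apart (Gm45609 for Ahcy, Dnmt3aos for Dnmt3a, Particl for Mat2a, E230029C05Rik and Gm45120 for Eed). Such genes also overlap Ezh2 (Gm26625, Gm44282), Suz12 (Gm26563), Dnmt1 (Mir7081), Tet2 (Gm42567) and Tet3 (5430434F05Rik, B230319C09Rik, Mir6374).

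Counts were analysed in R 4.3.3 with edgeR 4.0.16. The filterByExpr function dropped genes with low counts (minimum count 10, minimum total 15), TMM set the library scales, and a robust quasi-likelihood fit with genotype as its only term gave the tests. P-values were adjusted over all genes tested (Benjamini-Hochberg, threshold 0.05). Log2 fold changes are knockout over wild type, with SE from the F statistic and 95% intervals. CPM use the effective library size and are given per library or as mean ± SD. DESeq2 1.42.0, limma 3.58.1 (voom), no or a stricter filter, other scalings, a GC offset, the replicate block and the omission of libraries were alternatives. The scripts were tested on simulated counts that varied far less between replicates than these libraries did. The median fitted coefficient of variation between replicates was 1.49 over all genes tested. The simulation therefore does not show how sensitive the comparison was here.

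Gene positions are from RefSeq (GRCm38.p6); transcripts, their lengths and GC content are from GENCODE M21 on GRCm38, whose coordinates mm10 shares. Near-identical copies were transcripts of other genes matching over at least 200 bases at 95% identity or more. Members and lists were chosen with earlier results of these data known. Named genes were the members and, of each list, the called genes or else the 2 with the smallest p; likeness was sought for the 3 most abundant members with at least 10 counts in each library.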

Additional observations from a re-analysis of the deposited data

Results flagged for a closer look

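The members and the named list genes in each genotype made 52 groups of 4 libraries. In 4 groups, a library's gap to its nearest neighbour took up more of the range than Dixon's 95% critical value of 0.829 for 4 values. Chance gives about 1 in 20 for normally distributed values. CPM with many values near 0 are not so distributed, so the chance rate here is not known. None was in a member. Adi1 was at 4.86 CPM in knockout replicate 3, with the next knockout library at 0.0522 CPM. Wtap was at 694 CPM in knockout replicate 2, with the next at 309.7 CPM. Idh1 was at 14.6 CPM in wild-type replicate 3, with the next wild-type library at 0.65 CPM. Stmn1 was at 91.3 CPM in wild-type replicate 1, with the next at 228 CPM.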

How the results depend on the processing

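The count of genes called was 0 with all 8 libraries and ranged from 0 to 0 when each library was left out in turn; it was 387 with DESeq2 and 4 with limma voom. Members called were 0 in every alternative run, and list genes called were 0 except for 1 (Prmt2) with DESeq2. The number of members whose groups did not overlap was 1 and ranged from 1 to 4 when libraries were left out, with 4 without knockout replicate 4. Over 180 log2 fold changes of members under alternatives, 168 kept the sign and none was called, and 12 turned. Ezh2 turned to −2.20 with limma voom, −0.55 with the replicate block, −0.73 with the GC offset and the replicate block together and −0.19 without knockout replicate 2, and ranged from −0.19 to 0.88 over single libraries left out. Eed turned to −0.055 without wild-type replicate 4 (range −0.055 to 0.51). Dnmt3a turned to 0.083 with the GC offset, 0.23, 0.07 and 0.26 when wild-type replicate 1, wild-type replicate 4 or knockout replicate 4 was left out (range −0.496 to 0.26). With the knockout and wild-type libraries of fewest genes (replicate 4 of each) left out together, Eed was at −0.24, Suz12 at −0.078 and Dnmt3a at 0.46. The cause was not tested. The median log2 fold change of all genes, −0.12 in edgeR with all 8 libraries, was 0.15 with the GC offset, −0.68 with the replicate block and −1.28 with limma voom. The labels do not say whether replicate numbers pair the libraries. Same-numbered deviations correlated at −0.02, 0.02, 0.02 and 0.05, which cannot settle it. The replicate block called 0 genes, as did the fit without it.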
